A study of Homo sapiens with 6 samples.

Results

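The genes described here encode the subunits of RNA polymerases I, II and III, together with the initiation factors of polymerases I and III and the polymerase III repressor MAF1. Members were chosen by gene symbol among protein-coding genes, which gave 39 of the 60616 genes in the deposited files. 6 further genes with matching symbols are not protein-coding and were left out, and POLRMT, the mitochondrial RNA polymerase, is not a member. The members fall into 6 subunits particular to polymerase I, 7 particular to polymerase II, 10 particular to polymerase III, 2 shared by polymerases I and III, 5 shared by all 3 enzymes, 6 polymerase I initiation factors, and 3 genes of polymerase III initiation and repression.

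The RNA came from 12Z, an immortalized line of human endometriotic cells labelled as wild type, which was kept in medium with 10% charcoal-stripped serum. Frankincense is an aromatic tree resin, and its extract was given in DMSO at 70 ug/mL for 12 h to 3 of the samples, while 3 vehicle samples received DMSO. The study set out to find genes whose expression differs after frankincense. Whether the replicates were grown as separate cultures is not stated in the labels, so the spread that each p-value rests on may be technical.

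Nuclear transcription is divided among 3 enzymes. Polymerase I makes the large ribosomal RNA precursor in the nucleolus, polymerase II makes messenger RNA, and polymerase III makes transfer RNA and other short RNAs. Each enzyme has a pair of very large catalytic subunits, a set of smaller subunits of its own, and a core of small subunits common to all of them.

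Library totals ranged from 22615150 to 27615196 expected counts. A test of the counts between libraries gave a chi-square per degree of freedom of 4.08 between frankincense replicates 1 and 2, but 13.8 and 11.9 between each of them and replicate 3, so frankincense replicate 3 stood apart. For the members, its deviation from the mean of the other frankincense replicates had a median of -0.02 on the log2 scale and ranged from -0.41 to 0.31. As a check of the line's identity, the epithelial keratins KRT8 and KRT18 and the stromal collagen COL1A1 were all abundant, whereas the epithelial adhesion gene CDH1 stayed at or under 0.23 TPM (a level per transcript length with 1 fixed total for every library), the leukocyte gene PTPRC at or under 0.22 TPM and the T cell gene CD3E at 0. Of the other immune markers, CD68, a lysosomal gene of macrophages that other cells also express, was at 28.2 to 30.8 TPM in vehicle and 34.5, 40.7 and 63.6 TPM in frankincense libraries, and CD14 was at 1.94 to 2.88 and 0.23 to 0.57 TPM. The sum of all 4 immune markers was 30.2 to 33.8 TPM in vehicle and 35.1 to 64.0 TPM in frankincense libraries, and on counts edgeR called CD14 lower and none of the 3 tested higher. The summed level of 7 stromal markers was 2269 to 2294 TPM in vehicle and 935 to 1139 TPM in frankincense libraries, where 6 of the 7 markers were called lower and 1 higher. Called lower on counts were also 3 of 5 tested epithelial markers (2 higher), 1 of 3 mesothelial and all 4 smooth muscle markers. Over all tested genes 31.0% were called lower and 31.9% higher. A limma fit on log2(TPM + 1) called no mesothelial or smooth muscle marker in either direction. The smooth muscle sum was 38.2 to 39.8 TPM in vehicle and 37.5 to 39.7 TPM in frankincense libraries. Mean vehicle levels were 150 TPM for KRT19, 5.84 for KRT7, 1.12 for EPCAM, 28.5 for mesothelial MSLN and 37.2 for smooth muscle ACTA2. The stromal PDGFRA was at 2.76 TPM there, and smooth muscle CNN1, DES and MYH11 at 1.01, 0.57 and 0.23 TPM. The part of these shifts in the polymerase results was not tested. Because the RNA is from bulk cells, fewer cells of a kind and less RNA per cell cannot be told apart.

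All 39 members passed the filter on low counts. With edgeR's quasi-likelihood test and Benjamini-Hochberg adjustment over all genes, a gene was called at an adjusted p under 0.05. The test called 20 members higher, 5 lower and left 14 uncalled. Frankincense changed much of the transcriptome: 62.9% of the 16719 genes tested were called, 31.9% higher and 31.0% lower. The members' median log2 fold change was 0.21, beside -0.0016 over all tested genes. In scaled counts, 19 members lay higher and 6 lower in every frankincense library than in any vehicle library, beside 67.5% of all tested genes with such a separation (34.0% higher and 33.5% lower). The calls were unevenly placed among the enzymes. Polymerase III had 8 of its 10 particular subunits called higher and 1 lower, and polymerase I had 4 of 6 higher and none lower. Polymerase II had 2 of 7 higher and 1 lower, and of the 5 subunits common to all enzymes none was called higher and 3 lower. No test was made between these groups of genes, since genes are not replicates of a condition.

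**Figure D1:**
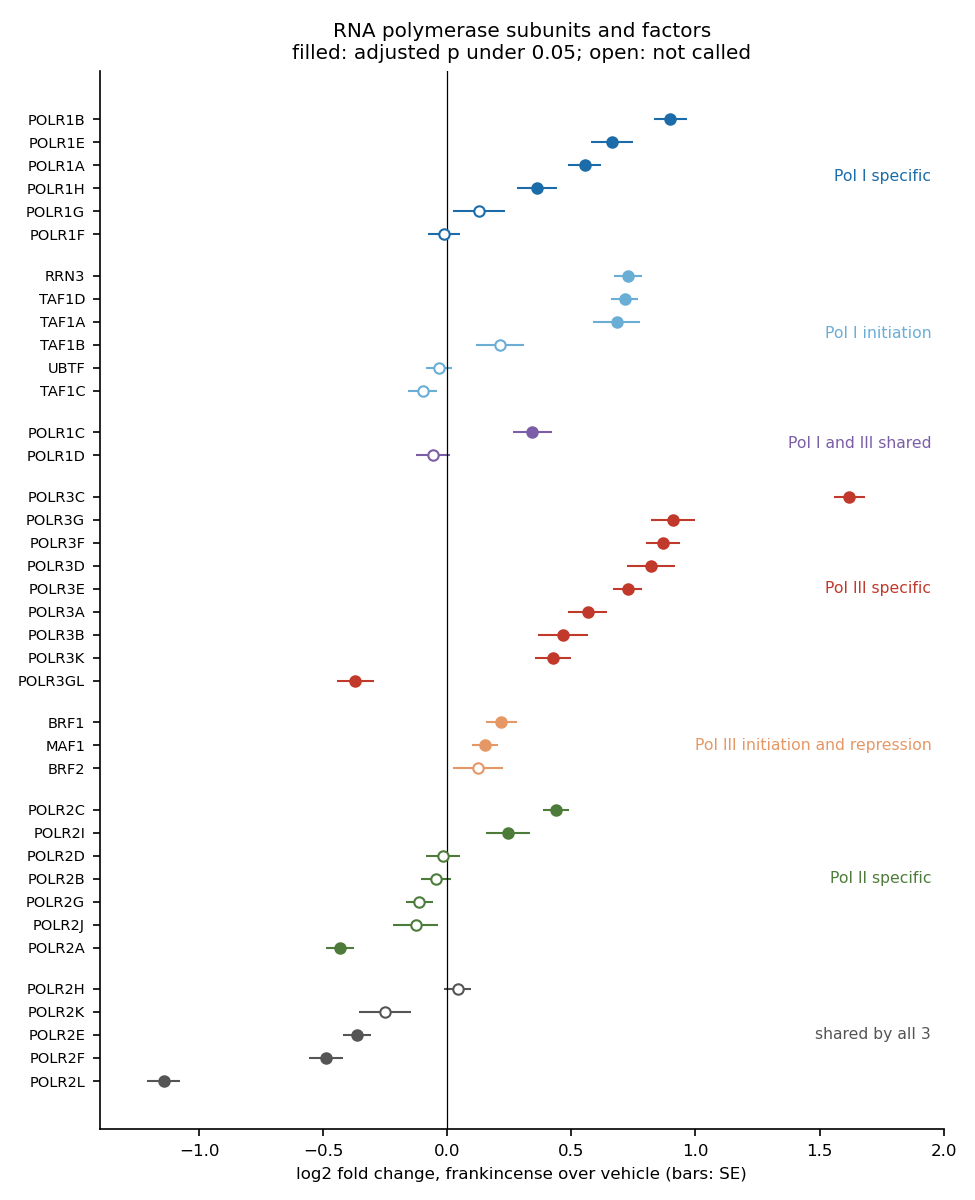
Log2 fold change of 38 of the 39 members, frankincense over vehicle, from edgeR on counts, with bars of 1 SE (3 libraries a group) and filled points where the gene was called. Members are grouped by enzyme, and they run from POLR3C at 1.62 to POLR2L at -1.14.

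Among the subunits particular to polymerase III, 8 rose together: POLR3A, POLR3B, POLR3C, POLR3D, POLR3E, POLR3F, POLR3G and POLR3K. The median log2 fold change of the 10 subunits was 0.65. Their mean levels in vehicle ran from 2.47 to 45.4 TPM, and POLR3GL was the most abundant of them.

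POLR3C, a subunit of the trimer that helps the enzyme open promoter DNA, rose the most of all members. The gene (ENSG00000186141, chr1:145824088-145842505, plus strand, GRCh38, positions from GENCODE 29) had 10.2, 10.3 and 11.3 TPM in vehicle replicates 1 to 3 and 32.1, 38.6 and 46.3 TPM in frankincense replicates 1 to 3. Every frankincense library lay far above every vehicle library, and the frankincense libraries were also more spread. The mean went from 10.6 ± 0.602 to 39.0 ± 7.10 TPM (SD, n = 3 each). On counts the log2 fold change was 1.62 ± 0.062 (SE), a 3.07-fold rise, with edgeR adjusted p = 3.3e-11.

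POLR3F, POLR3C's partner in that trimer, had 9.98, 9.12 and 9.83 TPM in vehicle and 19.9, 21.2 and 21.8 TPM in frankincense libraries. The groups did not overlap, and counts gave a 1.83-fold rise (log2 0.87 ± 0.068, edgeR adjusted p = 4.8e-08). The trimer's remaining place is filled by either POLR3G or POLR3GL, which are related proteins. POLR3G is the form known from stem cells and tumor cells, and POLR3GL is the form found in most tissues.

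POLR3G (ENSG00000113356, chr5:90471748-90514553, plus strand) had 7.44, 8.65 and 6.87 TPM in vehicle and 16.4, 16.6 and 16.5 TPM in frankincense libraries. The frankincense libraries were nearly equal and all were above vehicle, with a count log2 fold change of 0.91 ± 0.089 (1.88-fold, edgeR adjusted p = 5.2e-07). Its alternative went the other way. POLR3GL (ENSG00000121851, chr1:145964702-145978848, plus strand) had 36.6, 38.3 and 37.7 CPM (counts scaled to library size with a correction between libraries, not divided by length) in vehicle and 31.1, 30.5 and 25.6 CPM in frankincense libraries.

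All frankincense libraries were thus below all vehicle libraries for POLR3GL, whose count log2 fold change was -0.37 ± 0.074 (1.29-fold lower, edgeR adjusted p = 0.00051). Its TPM values also did not overlap, at 44.3, 45.4 and 46.5 in vehicle and 43.1, 42.8 and 39.2 in frankincense libraries, but a limma fit on log2(TPM + 1) gave -0.12 with adjusted p = 0.12. That scale places the median of all tested genes at 0.20, so POLR3GL stood at -0.32 relative to that median. The ratio of POLR3G to POLR3GL in TPM was 0.168, 0.191 and 0.148 in vehicle and 0.380, 0.389 and 0.420 in frankincense libraries. It rose in mean from 0.169 ± 0.0215 to 0.396 ± 0.0212 (SD), with no overlap. The exact two-sided permutation p was 0.1, the smallest that 3 against 3 can give. POLR3G and POLR3GL each separated in TPM, in opposite directions, so the ratio had to separate and this p adds nothing to their own values. POLR3GL remained the more abundant form in every library.

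The catalytic pair of polymerase III were its lowest members. POLR3A, the largest subunit, had 3.88, 3.57 and 4.24 TPM in vehicle and 6.31, 6.37 and 7.96 TPM in frankincense libraries. POLR3B, the second largest, had 2.18, 2.57 and 2.66 TPM in vehicle and 3.92, 3.71 and 4.60 TPM in frankincense libraries. Neither gene's groups overlapped. On counts POLR3A rose 1.48-fold (log2 0.57 ± 0.079, edgeR adjusted p = 2e-05) and POLR3B 1.38-fold (log2 0.47 ± 0.101, edgeR adjusted p = 0.001).

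POLR3D and POLR3E form the pair that resembles the polymerase II factor TFIIF. POLR3E was at 26.3, 23.4 and 27.2 TPM in vehicle and 48.6, 46.6 and 50.6 TPM in frankincense libraries, a 1.66-fold rise on counts (log2 0.73 ± 0.059, edgeR adjusted p = 7.2e-08). POLR3D rose 1.77-fold on counts (log2 0.82 ± 0.095, edgeR adjusted p = 6.5e-06), but its mean TPM went up 3.02-fold, from 5.72 ± 0.814 to 17.3 ± 3.81, and its mean transcript length was shorter there, as given with the transcript lengths. POLR3K, which takes part in RNA cleavage and termination, rose 1.34-fold (log2 0.43 ± 0.072, edgeR adjusted p = 0.00013). CRCP, a further subunit of the enzyme that does not carry a POLR3 symbol, rose 1.42-fold (log2 0.50 ± 0.060, edgeR adjusted p = 4e-06).

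**Figure D2:**
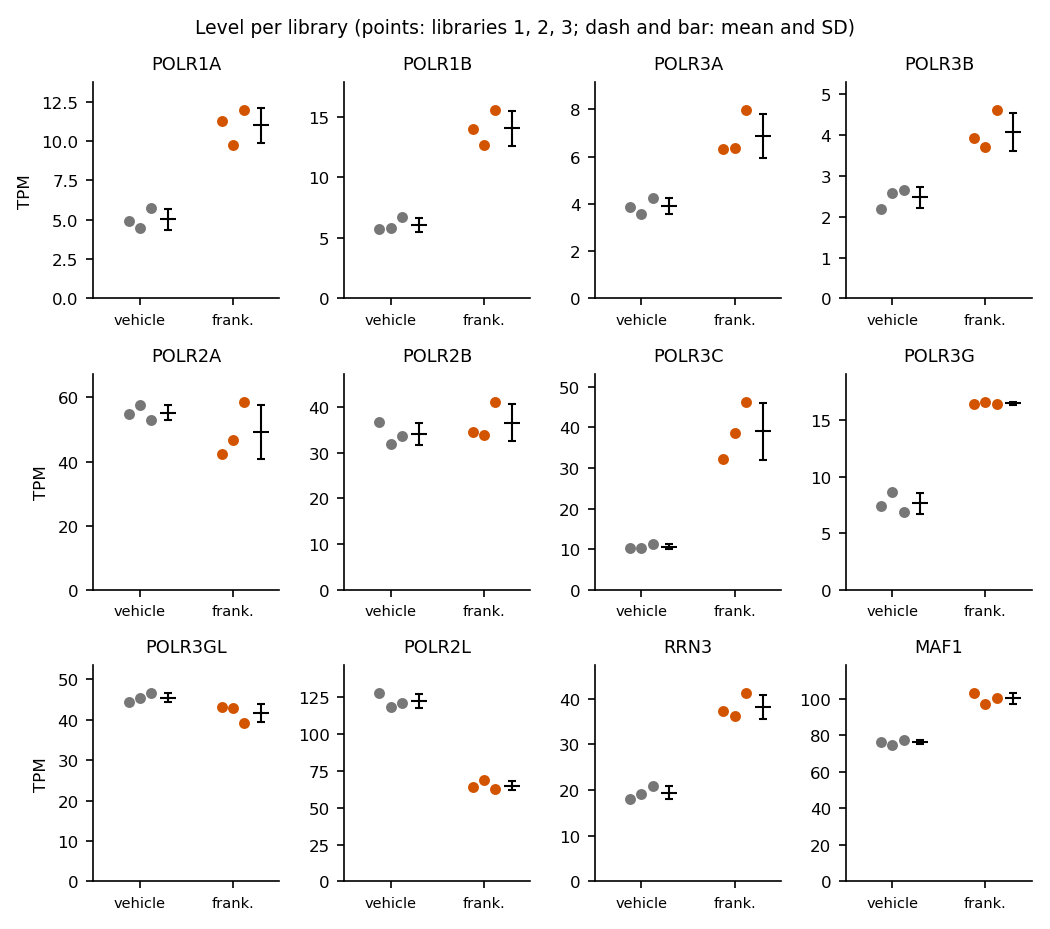
TPM in each library for 12 members, 1 panel a gene, with a point for each of the 3 vehicle and 3 frankincense (frank.) libraries and the mean with its SD beside them. The POLR3C mean goes from 10.6 to 39.0 TPM and that of POLR2L from 122 to 65.1, while the POLR2A and POLR2B groups overlap on this scale.

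Because 8 polymerase III subunits rose, the sequence before their starts is shown for the 3 of these whose windows hold the motif CACGTG and for POLR3GL, which fell. Of the 39 members, 29 had a promoter in the RefSeq table for GRCh38.p14, each 300 bases long, from 250 bases before to 50 bases after the RefSeq start. The windows are POLR3A at chr10:78029466-78029765 (minus strand), POLR3C at chr1:145823950-145824249 (plus strand), POLR3E at chr16:22297159-22297458 (plus strand) and POLR3GL at chr1:145964440-145964739 (plus strand). Each is written 5′ to 3′ on the gene's strand, and capitals mark CACGTG (the E-box bound by MYC and related factors), CCGGAAGT (a strong ETS factor site) and GGTTCGAATCC (a match to the B box inside tRNA genes, searched with any base allowed at 2 of its positions).
POLR3A: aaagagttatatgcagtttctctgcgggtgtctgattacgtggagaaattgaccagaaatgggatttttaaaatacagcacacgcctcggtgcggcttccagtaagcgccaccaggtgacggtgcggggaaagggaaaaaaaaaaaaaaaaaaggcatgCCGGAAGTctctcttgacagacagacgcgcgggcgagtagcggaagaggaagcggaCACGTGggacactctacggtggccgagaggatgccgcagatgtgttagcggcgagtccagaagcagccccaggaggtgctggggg
POLR3C: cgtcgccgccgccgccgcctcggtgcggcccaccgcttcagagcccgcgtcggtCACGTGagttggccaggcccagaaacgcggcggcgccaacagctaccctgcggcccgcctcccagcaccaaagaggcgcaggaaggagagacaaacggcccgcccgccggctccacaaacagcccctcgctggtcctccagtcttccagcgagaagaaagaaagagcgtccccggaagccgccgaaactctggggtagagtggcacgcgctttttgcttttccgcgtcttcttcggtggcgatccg
POLR3E: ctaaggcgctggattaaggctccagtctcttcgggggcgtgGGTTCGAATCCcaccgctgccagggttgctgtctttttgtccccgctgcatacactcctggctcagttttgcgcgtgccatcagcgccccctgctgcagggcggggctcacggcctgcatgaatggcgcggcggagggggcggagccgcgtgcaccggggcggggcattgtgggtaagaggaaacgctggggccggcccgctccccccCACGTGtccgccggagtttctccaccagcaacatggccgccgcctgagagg
POLR3GL: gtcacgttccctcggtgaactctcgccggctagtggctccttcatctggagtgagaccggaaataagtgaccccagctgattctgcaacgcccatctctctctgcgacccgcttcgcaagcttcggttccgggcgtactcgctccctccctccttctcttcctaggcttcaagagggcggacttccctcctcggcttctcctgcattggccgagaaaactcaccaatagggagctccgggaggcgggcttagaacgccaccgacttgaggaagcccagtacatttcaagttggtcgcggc

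The capitals show a CACGTG in POLR3A at -35, in POLR3C at -196 and in POLR3E at -1 from the start, and a CCGGAAGT in POLR3A at -91. Neither motif, on either strand, lies in the POLR3GL window. The windows shown do not set genes that rose apart from POLR3GL, since POLR3B, POLR3F and POLR3K also rose and hold no CACGTG in theirs. A second POLR3C promoter in the table has none either. CACGTG was in 4 of the 29 members (POLR1G, POLR3A, POLR3C and POLR3E), or 13.8%, beside 12.3% of the 11521 tested genes with a promoter. CCGGAAGT was in 8 of the 29, or 27.6%, beside 9.55% of tested genes, and those 8 were POLR1B, POLR1C, POLR2C, POLR2F, POLR3A, RRN3, TAF1A and TAF1C. Of these, POLR2F fell and TAF1C was not called, so the motif was not limited to genes that rose. Over all 35116 promoters in the table the shares were 7.26% for CACGTG and 4.14% for CCGGAAGT. TATAAA and TGATGNAA (an amino acid response element read by ATF4) were in none of the 29, beside 8.61% and 2.72% of tested genes. These are matches of letters, and no binding was measured.

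The POLR3E window holds part of a gene that polymerase III itself transcribes. The tRNA gene TRL-AAG2-4 (chr16:22297140-22297221) ends 188 bases before the POLR3E start, and the B box in capitals is its internal promoter element. Only 29 of the 35116 promoters, 0.0826%, hold any bases of the 465 tRNA genes in the table. The B box letters were in 2 of the 29 members, POLR3E and TAF1C, beside 0.295% of tested genes.

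Of the 3 members that act in polymerase III initiation or repression, BRF1 and MAF1 rose and BRF2 was not called. BRF1, the TFIIIB subunit for tRNA genes, had 14.8, 15.5 and 13.9 TPM in vehicle and 20.9, 18.4 and 21.4 TPM in frankincense libraries. Its groups did not overlap, and on counts it rose 1.16-fold (log2 0.22 ± 0.064, edgeR adjusted p = 0.0081). BRF2, the TFIIIB subunit for polymerase III genes with upstream promoters, had 5.14, 6.71 and 6.42 TPM in vehicle and 7.29, 7.88 and 8.58 TPM in frankincense libraries. On counts its log2 fold change was 0.12 ± 0.102 (edgeR adjusted p = 0.3), and 59.0% of its exonic bases are shared with ADGRA2 on the opposite strand, whose reads cannot be told apart without strand. MAF1 represses polymerase III when nutrients are short. It had 76.2, 74.9 and 77.3 TPM in vehicle and 103, 97.2 and 101 TPM in frankincense libraries, so the groups were apart, and counts gave a 1.11-fold rise (log2 0.15 ± 0.053, edgeR adjusted p = 0.023). The MAF1 call was lost without vehicle replicate 1 (adjusted p = 0.092), 2 (0.075) or 3 (0.051) or frankincense replicate 1 (0.12), and under upper-quartile scaling (0.089).

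Of 18 further polymerase III genes tested, the subunits of TFIIIC, TFIIIB and SNAPc, partner proteins and CRCP, 9 were called higher and 2 lower. Over all tested genes the shares were 31.9% and 31.0%. The median log2 fold change of the 18 genes was 0.17. SNAPC5, a subunit of the snRNA activating complex, had the largest rise at 1.84-fold (log2 0.88 ± 0.083), and GTF3C3 of TFIIIC stood at log2 0.44 ± 0.055. The 2 that fell were ZNF143, an activator of snRNA promoters, at log2 -0.62 ± 0.085, and GTF3C1, the largest TFIIIC subunit, at -0.28 ± 0.059. On log2(TPM + 1) GTF3C1 stood at -0.09 and was not called (limma adjusted p = 0.52). TBP, which all 3 enzymes use for initiation, rose 1.22-fold (log2 0.29 ± 0.070, edgeR adjusted p = 0.0022).

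Among the 6 subunits particular to polymerase I, POLR1A, POLR1B, POLR1E and POLR1H rose, and POLR1F and POLR1G were not called. The median log2 fold change was 0.46. POLR1B, the second largest subunit (ENSG00000125630, chr2:112541915-112577150, plus strand), rose the most, from 5.70, 5.79 and 6.72 TPM in vehicle to 14.0, 12.6 and 15.5 TPM in frankincense libraries. The groups were far apart, and the count log2 fold change was 0.90 ± 0.067 (1.86-fold, edgeR adjusted p = 3.1e-08). POLR1A, the largest subunit (ENSG00000068654, chr2:86020216-86106155, minus strand), had 4.89, 4.44 and 5.76 TPM in vehicle and 11.3, 9.77 and 11.9 TPM in frankincense libraries. Its mean TPM went up 2.19-fold and its counts 1.47-fold (log2 0.55 ± 0.066, edgeR adjusted p = 4.5e-06), and its mean transcript length was also shorter.

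POLR1E, which with POLR1G forms the TFIIF-like pair of polymerase I, rose 1.58-fold (log2 0.66 ± 0.086, edgeR adjusted p = 9.2e-06). POLR1G itself stood at log2 0.13 ± 0.103 and was not called, and 45.1% of its exonic bases lie on ERCC1 of the opposite strand, a far more abundant gene. POLR1H, the subunit for RNA cleavage and the most abundant of the 6, had 36.0, 39.4 and 34.8 TPM in vehicle and 60.0, 57.1 and 55.6 TPM in frankincense libraries. Counts gave a 1.28-fold rise (log2 0.36 ± 0.081, edgeR adjusted p = 0.0014). Of the exonic bases of POLR1H 24.5% are shared with POLR1HASP on the opposite strand, whose own log2 fold change was 0.83 ± 0.098. POLR1F, a stalk subunit, had a log2 fold change of -0.01 ± 0.064 on counts. On log2(TPM + 1) limma gave it 0.26 with adjusted p = 0.040, or 0.06 relative to the median of all genes there.

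POLR1C and POLR1D form the assembly platform used by both polymerases I and III, and they differed. POLR1C had 20.1, 22.1 and 19.9 TPM in vehicle and 27.4, 32.9 and 35.5 TPM in frankincense libraries, and rose 1.27-fold on counts (log2 0.34 ± 0.079, edgeR adjusted p = 0.0016). POLR1D had 80.4, 83.1 and 79.8 TPM in vehicle and 81.4, 84.9 and 81.1 TPM in frankincense libraries, so its groups overlapped, and its log2 fold change was -0.06 ± 0.068 (edgeR adjusted p = 0.49).

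Polymerase I needs RRN3, UBTF and the SL1 complex of TBP with TAF1A to TAF1D to start on ribosomal DNA. Of these 6 members, RRN3, TAF1A and TAF1D rose and none was called lower, with a median log2 fold change of 0.45. Without frankincense replicate 3, 3 were called higher and 1, TAF1C, lower. RRN3, which couples the enzyme to SL1 and is known to respond to growth signals (ENSG00000085721, chr16:15060022-15094317, minus strand), had 18.1, 19.2 and 21.0 TPM in vehicle and 37.4, 36.3 and 41.2 TPM in frankincense libraries. It rose 1.66-fold on counts with no overlap (log2 0.73 ± 0.057, edgeR adjusted p = 4.7e-08).

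TAF1D had 132, 121 and 124 TPM in vehicle and 246, 230 and 242 TPM in frankincense libraries, the highest frankincense level of any member. On counts it rose 1.64-fold (log2 0.72 ± 0.055, edgeR adjusted p = 4.2e-08). TAF1A had 10.2, 10.4 and 10.6 TPM in vehicle and 15.3, 19.9 and 23.0 TPM in frankincense libraries, a clear separation with a wide frankincense spread, and rose 1.60-fold (log2 0.68 ± 0.095, edgeR adjusted p = 2e-05). The remaining SL1 subunits were not called. TAF1B had 8.14, 7.45 and 9.53 TPM in vehicle and 9.04, 10.2 and 11.5 TPM in frankincense libraries, which overlap, with a log2 fold change of 0.21 ± 0.097 (edgeR adjusted p = 0.07). TAF1C had 26.5, 28.8 and 24.1 TPM in vehicle and 27.1, 24.6 and 32.6 TPM in frankincense libraries, with a log2 fold change of -0.10 ± 0.060 (edgeR adjusted p = 0.16).

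UBTF, the architectural protein that coats active ribosomal DNA, was called on the TPM scale and not on counts. Its TPM values were 24.6, 22.9 and 23.5 in vehicle and 32.6, 30.6 and 36.2 in frankincense libraries, which do not overlap. Its scaled counts were nearly equal, with means of 62.9 ± 1.33 and 61.5 ± 1.85 CPM (SD, n = 3 each) and a log2 fold change of -0.03 ± 0.052 (edgeR adjusted p = 0.61). On log2(TPM + 1) limma gave 0.47 with adjusted p = 0.00086, or 0.27 relative to the median of all genes on that scale.

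Among 15 other genes that act on ribosomal DNA transcription, 3 were called higher and 5 lower, beside 31.9% and 31.0% of all tested genes. Their median was -0.02. MYC, a transcription factor known to act on genes of all 3 polymerases, had a mean of 29.6 ± 1.58 TPM in vehicle and 48.0 ± 4.32 TPM in frankincense libraries (SD, n = 3 each) and rose 1.40-fold on counts (log2 0.48 ± 0.059, edgeR adjusted p = 5.6e-06). NCL, the nucleolar protein nucleolin, stood at log2 0.36 ± 0.054, and TBP is the third that rose. The largest falls were in TOP2A, a topoisomerase that is also a marker of dividing cells, at log2 -0.97 ± 0.059, in CAVIN1, a caveolar protein also known as a polymerase I release factor, at -0.93 ± 0.057, and in BAZ2A, a subunit of the complex that silences ribosomal DNA, at -0.40 ± 0.049. On log2(TPM + 1) BAZ2A stood at -0.18 and was not called (limma adjusted p = 0.13).

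Polymerase II showed no common direction on counts. Of its 7 particular subunits, POLR2C and POLR2I rose, POLR2A fell and the other 4 were not called. Their median log2 fold change was -0.04, and it was above 0 under scaling by library size alone (0.03) and on the TPM scale (0.15, or -0.04 relative to all genes there). Their mean levels in vehicle ran from 19.0 to 109 TPM, with a median of 62.9 TPM beside 6.98 for the polymerase I and 10.1 for the polymerase III subunits, and the ranges of the enzymes overlapped.

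POLR2A, the largest subunit with the repeated tail that is phosphorylated during transcription (ENSG00000181222, chr17:7484366-7514616, plus strand), had 259, 265 and 254 CPM in vehicle and 184, 190 and 204 CPM in frankincense libraries. Every frankincense library was below every vehicle library, and the count log2 fold change was -0.43 ± 0.057 (1.35-fold lower, edgeR adjusted p = 1.2e-05). In TPM the groups overlapped, at 54.9, 57.7 and 53.0 in vehicle and 42.3, 46.7 and 58.7 in frankincense libraries, where frankincense replicate 3 was the highest of all. The limma fit on log2(TPM + 1) gave -0.17 with adjusted p = 0.2, or -0.37 relative to all genes. POLR2B, the second largest subunit, had 36.6, 31.9 and 33.6 TPM in vehicle and 34.6, 34.0 and 41.1 TPM in frankincense libraries, which overlap, and a log2 fold change of -0.04 ± 0.061 (edgeR adjusted p = 0.55).

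POLR2C, part of the polymerase II assembly platform, was the subunit of this enzyme with the largest rise. It had 61.8, 60.8 and 66.1 TPM in vehicle and 96.9, 102 and 104 TPM in frankincense libraries, well apart, and rose 1.35-fold on counts (log2 0.44 ± 0.053, edgeR adjusted p = 4.6e-06). Its platform partner POLR2J stood at -0.13 ± 0.089 and was not called; reads of POLR2J can be divided among near-identical copies such as POLR2J2 and POLR2J3, so its value is uncertain. POLR2I, which acts in transcript fidelity, rose 1.18-fold (log2 0.24 ± 0.089, edgeR adjusted p = 0.027). That call was lost without vehicle replicate 1 (adjusted p = 0.088) or 3 (0.099) or frankincense replicate 1 (0.11) or 2 (0.12), or under upper-quartile scaling (0.061), and 32.9% of its exonic bases are shared with TBCB on the opposite strand. The stalk subunits POLR2D and POLR2G stood at log2 -0.02 ± 0.068 and -0.11 ± 0.054 and were not called on counts. In TPM both were higher in every frankincense library than in any vehicle library. On log2(TPM + 1) limma gave 0.40 (adjusted p = 0.0031) and 0.15 (adjusted p = 0.040), or 0.20 and -0.04 relative to all genes.

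The subunits common to all 3 enzymes gave the only other falls. POLR2L, a small zinc-binding subunit at the base of the enzymes (ENSG00000177700, chr11:837356-842545, minus strand), had 128, 118 and 121 TPM in vehicle and 63.8, 68.8 and 62.6 TPM in frankincense libraries. All 3 frankincense libraries were tightly grouped far below vehicle, and the mean went from 122 ± 4.84 to 65.1 ± 3.28 TPM (SD, n = 3 each). On counts it fell 2.21-fold (log2 -1.14 ± 0.067, edgeR adjusted p = 2.4e-09). Of its exonic bases 22.5% are shared with CD151 on the opposite strand, whose own log2 fold change was -0.18 ± 0.054.

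POLR2F, at the foot of the clamp, had 91.7, 89.7 and 86.9 TPM in vehicle and 78.3, 71.3 and 75.1 TPM in frankincense libraries, again with no overlap, and fell 1.40-fold on counts (log2 -0.49 ± 0.067, edgeR adjusted p = 1.8e-05). POLR2E, in the lower jaw and the most abundant member in vehicle libraries, fell 1.29-fold on counts (log2 -0.36 ± 0.057, edgeR adjusted p = 6.5e-05). Its CPM values were 122, 125 and 124 in vehicle and 99.8, 101 and 87.9 in frankincense libraries, but in TPM the groups overlapped and limma gave -0.03 with adjusted p = 0.72, or -0.22 relative to all genes. POLR2K and POLR2H stood at log2 -0.25 ± 0.104 and 0.04 ± 0.055 and were not called, with edgeR adjusted p = 0.061 and 0.53. In the 17 alternatives POLR2K was called lower in 6 and POLR2H higher in 2.

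The levels of the enzymes were then set side by side within each library, as the mean log2 CPM of a group's members relative to the vehicle mean. For the 10 polymerase III subunits this was -0.02, -0.01 and 0.04 in vehicle and 0.61, 0.59 and 0.61 in frankincense libraries. For the 6 polymerase I subunits it was -0.07, -0.0021 and 0.07 in vehicle and 0.45, 0.43 and 0.41 in frankincense libraries. Both sets were displaced by nearly the same amount in every frankincense library. The 7 polymerase II subunits gave -0.01, 0.05 and -0.07 in frankincense libraries, which overlap the vehicle values of -0.02, 0.0018 and 0.02. The 5 common subunits gave -0.36, -0.39 and -0.58, with frankincense replicate 3 the lowest, and -0.0105, 0.0057 and 0.0048 in vehicle libraries. The difference between polymerase III and polymerase II subunits was 0.62 ± 0.067 in frankincense libraries (SD, n = 3) and that between polymerase I and polymerase II subunits 0.44 ± 0.048, with vehicle means of 0 by construction and SDs of 0.016 and 0.047. These are descriptions of chosen lists and carry no test.

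**Figure D3:**
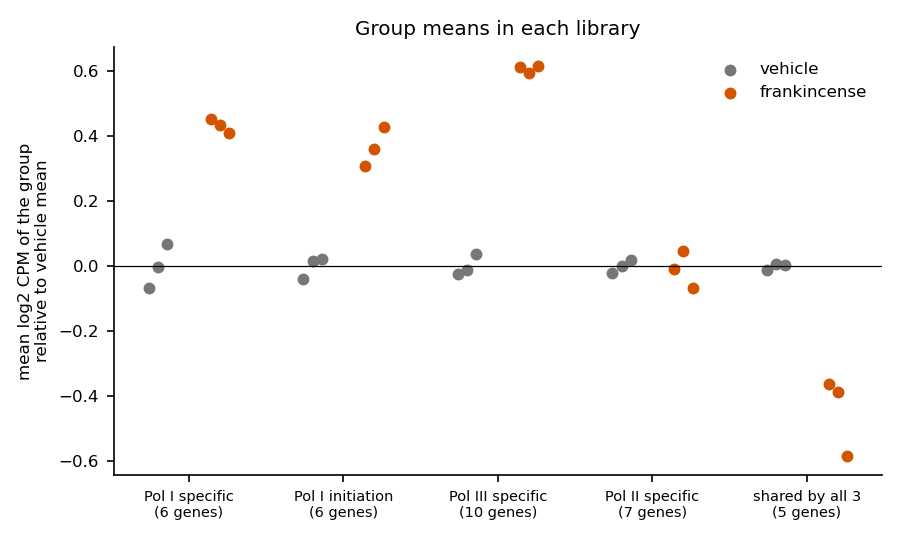
Mean log2 CPM of each subunit or factor group in each library, relative to the vehicle mean, 3 points a treatment. The polymerase III subunits sit at 0.59 to 0.61 in frankincense libraries and the polymerase II subunits at -0.07 to 0.05.

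Ratios of the catalytic subunits in TPM, which compare genes per length, were taken within each library. POLR1A over POLR2A was 0.0890, 0.0770 and 0.109 in vehicle and 0.266, 0.209 and 0.204 in frankincense libraries, and POLR3A over POLR2A was 0.0706, 0.0619 and 0.0801 in vehicle and 0.149, 0.136 and 0.136 in frankincense libraries. The ratio of the second largest subunits, POLR1B over POLR2B, went from 0.179 ± 0.0224 to 0.384 ± 0.0173, and POLR3B over POLR2B from 0.0731 ± 0.0118 to 0.111 ± 0.00208 (SD, n = 3 each). All 4 ratios were higher in every frankincense library than in any vehicle library, each with an exact two-sided permutation p of 0.1. The mean transcript length, which enters TPM, was 20.4% shorter in frankincense libraries for POLR1A and 0.75% shorter for POLR2A. On counts POLR1A rose 1.47-fold and POLR2A fell 1.35-fold. How much of the rise in POLR1A over POLR2A goes with length was not tested. All 4 ratios stayed under 1 in every library, so POLR2A and POLR2B remained the more abundant transcripts. Within polymerase III, POLR3C over POLR3A went from 2.74 ± 0.137 to 5.65 ± 0.505, so the subunit transcripts did not keep one proportion.

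The files also give each gene's mean transcript length in each library, weighted by the abundance of its transcripts, which the count test does not use. 4 of the 39 members had a mean length at least 10% shorter in frankincense libraries with no overlap between the groups, beside 4.02% of all tested genes. None was at least 10% longer with no overlap, beside 1.89%, and TAF1B was 10.5% longer in mean with groups that overlap. The 4 were POLR3D, POLR1A, UBTF and POLR2D. POLR3D went from 3981, 4578 and 4013 bases in vehicle to 2986, 3016 and 2870 bases in frankincense libraries, a mean 29.4% shorter. POLR1A went from 11992, 12480 and 11084 bases to 8579, 9685 and 10025 bases, 20.4% shorter in mean. UBTF went from 3335 ± 150 to 2791 ± 63.9 bases (SD, n = 3 each) and POLR2D from 3023 ± 102 to 2675 ± 23.5 bases.

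A given number of reads over a smaller length gives a higher TPM, and the TPM scale also stood higher for genes in general, as given for POLR3GL. The TPM ratio of frankincense to vehicle was 3.02 for POLR3D, 2.19 for POLR1A, 1.40 for UBTF and 1.34 for POLR2D, beside count folds of 1.77, 1.47, 0.978 and 0.988. POLR3F and POLR1E, which are not among the 4, also had higher ratios in TPM (2.18 and 1.88) than on counts (1.83 and 1.58). How much of each gap goes with length was not tested. Which transcripts make up the shift was not analysed here. For each length the exact permutation test cannot give less than p = 0.1.

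**Figure D4:**
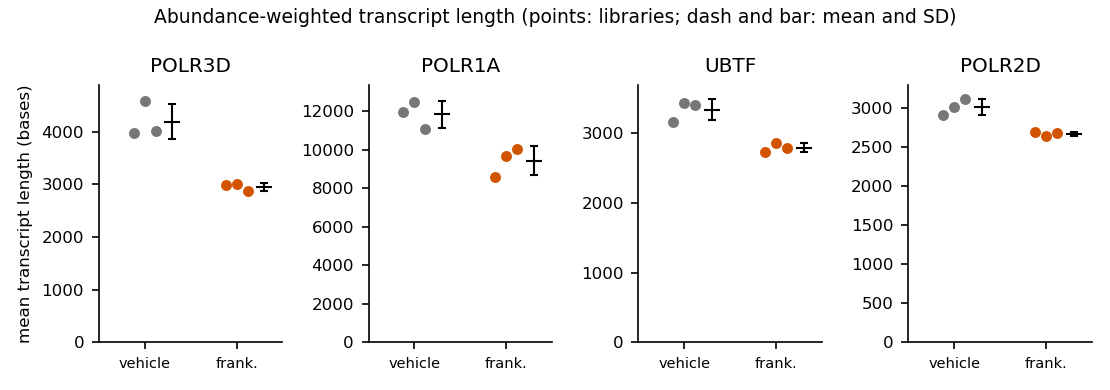
Abundance-weighted mean transcript length in bases of POLR3D, POLR1A, UBTF and POLR2D, 1 panel a gene, with a point for each of the 3 vehicle and 3 frankincense (frank.) libraries and the mean with its SD beside them. In each panel all frankincense points lie below all vehicle points, with the POLR3D mean 29.4% lower.

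The factors that work with polymerase II were examined for comparison with its subunits. Of 33 general initiation factors, the subunits of TFIIA to TFIIH and TFIID, 17 were called higher and 4 lower. Over all tested genes the shares were 31.9% and 31.0%. The median log2 fold change of these factors was 0.20. The largest rises were TAF4B, a low-abundance TFIID subunit (log2 1.02 ± 0.181, mean 0.683 ± 0.203 to 1.66 ± 0.0473 TPM), GTF2H1 of the TFIIH core (0.80 ± 0.062) and MNAT1, the assembly factor of the TFIIH kinase (0.72 ± 0.080). The largest falls on counts were TAF9B (-0.41 ± 0.059), TAF4 (-0.35 ± 0.059) and GTF2H5 (-0.29 ± 0.089). On log2(TPM + 1) limma called 25 of the 33 higher and none lower, beside 43.8% and 14.8% of all genes. Of 29 pausing and elongation factors, 8 were called higher and 9 lower, with a median of -0.01. These counts are near the shares of 31.9% and 31.0% over all tested genes. TCEA1, the factor that rescues backtracked polymerase II, had a mean of 95.1 ± 3.52 TPM in vehicle and 267 ± 3.54 TPM in frankincense libraries (SD, n = 3 each) and rose 2.35-fold on counts (log2 1.23 ± 0.062, edgeR adjusted p = 5.6e-10). AFF4 and ELL2 of the super elongation complex stood at 0.34 ± 0.061 and 0.30 ± 0.053. The largest falls were ELL3 (-2.23 ± 0.215), HEXIM1, an inhibitor of the pause release kinase (-0.65 ± 0.060), and TCEA2 (-0.60 ± 0.067). POLR2M, a pausing factor named like a subunit, rose 1.10-fold (log2 0.13 ± 0.053, edgeR adjusted p = 0.041).

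Of 21 factors that assemble polymerases before import into the nucleus, 7 were called higher and 4 lower, with a median of 0.09. Over all tested genes 31.9% were called higher, a share near that of this list, and 31.0% lower. The largest rises were in the prefoldin-like proteins PDRG1 (log2 0.97 ± 0.070) and PFDN2 (0.82 ± 0.152) and in RPAP2, a phosphatase of the POLR2A tail (0.42 ± 0.065). PIH1D1, RUVBL2 and URI1, all of the cochaperone machinery that works with HSP90, fell on counts by 0.27, 0.20 and 0.18 on the log2 scale. On log2(TPM + 1), where the median of all genes was 0.20, they stood at -0.03, 0.02 and 0.10. There limma called none of them (adjusted p = 0.74, 0.72 and 0.29). The mitochondrial polymerase POLRMT rose 1.23-fold (log2 0.30 ± 0.064, edgeR adjusted p = 0.00087).

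**Figure D5:**
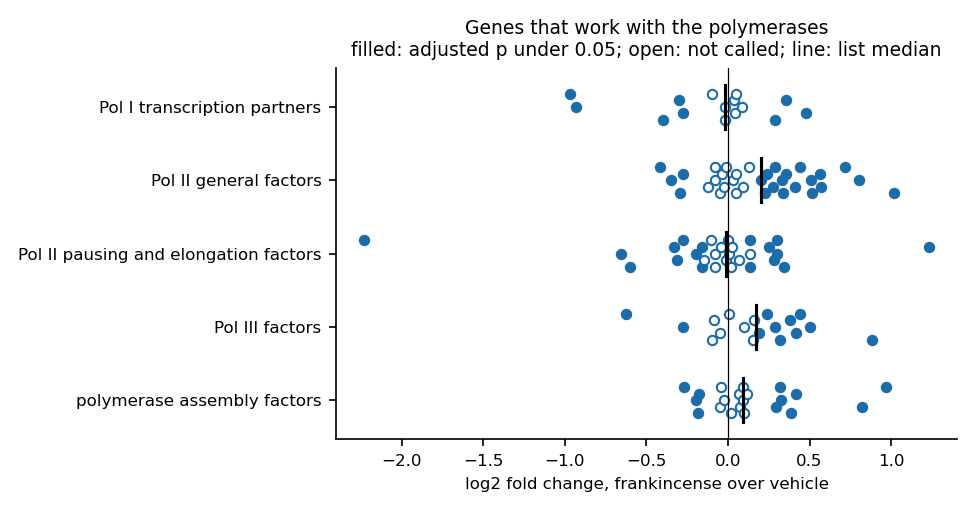
Log2 fold change, frankincense over vehicle, of each gene in 5 lists of factors that work with the polymerases, 1 point a gene, filled where edgeR called it, with a line at each list median. The medians are 0.20 for the polymerase II general factors and 0.17 for the polymerase III factors, and -0.02 and -0.01 for the polymerase I partners and the elongation factors.

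Leaving out frankincense replicate 3 gave 20 members higher and 6 lower, beside 33.1% and 31.1% of all genes tested in that fit. On log2(TPM + 1) limma called 27 members higher and 2 lower, beside 43.8% and 14.8% of all genes. The members still called lower there were POLR2L and POLR2F, while POLR3GL, POLR2A and POLR2E were not called. With mitochondrial genes taken out before TPM were rescaled, the counts were 22 higher and 6 lower, beside 30.8% and 22.5% of all genes.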

How the data were processed

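RNA of 6 samples, 3 a group, was sequenced after a TruSeq RNA library kit from 1.5 ug of total RNA, per the labels' protocols. STAR, RSEM 1.3.1 and GRCh38 were used per the submitters' processing notes; the strand setting and gene annotation were not given in the sources used here. The authors' files hold, per the file headers, RSEM expected counts, which divide reads among similar genes, as well as TPM, FPKM and a mean transcript length for each gene and library. The deposited FPKM values were not used. TPM rests on length and on the sum over all genes, so a change in transcript mix or in a few abundant genes moves it, whereas counts hold no length.

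After rounding, the expected counts went into edgeR 4.0.16 under R 4.3.3 (filterByExpr, TMM, robust glmQLFit, glmQLFTest, two-sided, Benjamini-Hochberg over the 16719 genes kept, called at adjusted p under 0.05). SE is the log2 fold change over the square root of F. CPM are counts over library sizes corrected with TMM factors. The biological coefficient of variation was 6.42%. The test was checked on simulated data. TPM were tested with limma 3.58.1 on log2(TPM + 1), which understates changes of low genes. Symbols came from a gene name table that held 60419 of the 60616 identifiers, positions from GENCODE 29, promoters and tRNA genes from RefSeq tables (GRCh38.p14). The 17 alternatives were other scalings, DESeq2 1.42.0, limma-voom, filters, TPM scales, a replicate block and 6 left-out libraries.

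All members enter the counts and medians, and the values of 1 member are not reported here. Library values are printed for the largest subunits, POLR3G and POLR3GL, the shared pair POLR1C and POLR1D, initiation factors, MAF1 and the largest rise and fall of each enzyme group; values of other members were added after they were seen. Of each related list up to 3 rises and 3 falls of at least 1 TPM are named. Members and lists were chosen with earlier results of these data known.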

Additional observations from a re-analysis of the deposited data

How the results depend on the processing

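Across 38 members and 17 alternatives, 579 of 646 values kept direction and side of the threshold, 16 lost the call, 19 gained it and 32 changed sign. The gained calls, without a sign change, were 6 in POLR2K, 4 in TAF1B, 2 each in BRF2, POLR2G and POLR2H, and 1 each in POLR1D, POLR2J and TAF1C. All 32 sign changes belong to members not called on the counts. Some of them were themselves called, and these are not among the 19. On log2(TPM + 1) limma called UBTF (adjusted p = 0.00086), POLR2D (0.0031), POLR1F (0.040) and POLR2G (0.040) higher. Scaling by library size gave POLR1D 0.0184, POLR2B 0.0320, UBTF 0.0441, POLR2D 0.0592 and POLR1F 0.0633. On log2(TPM + 1) they were POLR1D 0.0236, TAF1C 0.0756, POLR2B 0.10, POLR2J 0.10, POLR2G 0.15, POLR1F 0.26, POLR2D 0.40 and UBTF 0.47, and with a pseudocount of 0.1 POLR1D 0.0238, TAF1C 0.0779, POLR2B 0.10, POLR2J 0.10, POLR2G 0.15, POLR1F 0.28, POLR2D 0.41 and UBTF 0.48. TPM without mitochondrial genes gave POLR1F 0.0896, POLR2D 0.22 and UBTF 0.29. POLR1F was 0.0015 with no filter, and POLR2H -0.0022 with upper-quartile scaling. Leaving out each library in turn gave POLR1D -0.0978 to 0.0260, POLR1F -0.0478 to 0.0437, and POLR2D -0.0629 to 0.0330; POLR1D turned without frankincense replicate 3, POLR1F without frankincense or vehicle replicate 3, and POLR2D without either of these or frankincense replicate 1. TPM raised the median of all genes by 0.20 (0.24 with a pseudocount of 0.1).

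With TPM pseudocounts of 1 and 0.1, the genes called lower were 2474 and 2477 instead of 5177, and the members called lower were 2 and 2 instead of 5. The group medians there were 0.74 and 0.78 for polymerase I subunits, 0.64 and 0.68 for polymerase I initiation, 0.79 and 0.86 for polymerase III, 0.15 and 0.15 for polymerase II, and -0.0259 and -0.0260 for the common subunits. Library-size scaling gave 0.53 for polymerase I, 0.72 for polymerase III and 0.0320 for polymerase II, and upper-quartile scaling -0.0888 for polymerase II. TPM without mitochondrial genes gave 0.57 for polymerase I and -0.21 for the common subunits. Leaving out each library in turn gave medians of 0.44 to 0.48 for polymerase I, 0.40 to 0.50 for its initiation factors, 0.60 to 0.68 for polymerase III, -0.079 to -0.0034 for polymerase II and -0.39 to -0.29 for the common subunits. It gave 18 to 20 members higher and 5 to 7 lower. The cause of these shifts was not tested.

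The replicate numbers did not pair the samples by the rule used, since the correlations of same-numbered deviations were 0.05, 0.10 and 0.04, although each sample correlated best with its own number. With the replicate block, 21 members were called higher and 5 lower (5347 and 5244 of all genes), and TAF1B was called at 0.21 with adjusted p = 0.048. Depth limits the low members most, such as POLR3B at 2.47 TPM.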

Other observations

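RNAs that polymerase III itself makes were poorly captured. Of 27 listed polymerase I and III transcripts, 21 were found, 6 passed the filter and edgeR called none of them, and limma on log2(TPM + 1) called 1 higher. That was BCYRN1 (adjusted p = 0.0059), with 49.8, 68.7 and 52.9 TPM in vehicle and 84.25, 105 and 74.8 TPM in frankincense libraries. On counts its log2 fold change was 0.36 ± 0.212 (edgeR adjusted p = 0.15). Vehicle replicate 2 was far above the other libraries for several. RN7SK, the RNA that holds the pause release kinase inactive, had 3.45, 90.7 and 10.2 TPM in vehicle and 14.0, 34.9 and 7.16 TPM in frankincense libraries. RN7SL1, the RNA of the signal recognition particle, had 47.1, 286 and 115 TPM in vehicle and 63.0, 103 and 37.0 TPM in frankincense libraries. The vehicle spread of RN7SK and RN7SL1 covers all or nearly all frankincense values, and BCYRN1 was called on 1 scale only. These libraries thus do not show whether the output of polymerase III moved with its subunit transcripts.

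Several members share a promoter region with a neighbour read in the other direction. 7 members have a tested protein-coding gene on the opposite strand that starts within 1000 bases upstream of the member's own start. Opposite-strand genes that start inside a member were not searched, so the list of such pairs is incomplete. How often such pairs move together over all genes was not computed. RNF115, a ubiquitin ligase gene that starts 11 bases from POLR3C, rose with it but less (log2 0.61 ± 0.065, adjusted p = 1.2e-06). ZBTB4 starts 103 bases from POLR2A and stood at -0.29 ± 0.049, ANKRD34A 120 bases from POLR3GL at -0.61 ± 0.169, and TSPAN4 263 bases from POLR2L at -0.19 ± 0.055. PTCD3, 27 bases from POLR1A, fell on counts by 0.16 while POLR1A rose. LNX2, 338 bases from POLR1D, stood at 0.46 ± 0.107, and CLCN2, 67 bases from POLR2H, at 0.12 ± 0.106.

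The gene symbol POLR2J3 belongs to 2 identifiers in the files that did not move alike. One (ENSG00000168255) had a log2 fold change of 0.37 ± 0.076 (edgeR adjusted p = 0.00067) and the other (ENSG00000285437) of -0.13 ± 0.077 (adjusted p = 0.16). POLR2J2 stood at -0.22 ± 0.321. Reads of these near-identical copies are divided by estimation, so each value is uncertain.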
